A study of Homo sapiens with 16 samples.

Results

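HT29 is an established human colon adenocarcinoma cell line, and the data described here are its p65 ChIP-Seq libraries set against its input libraries. They comprise 6 p65 ChIP libraries and 2 inputs, 8 of the 16 coverage tracks of the series, the other 8 being the same set from SW480 colon cancer cells. The 3 mock ChIP libraries came from HT29 cells stably carrying an empty vector, and the 3 ERβ ChIP libraries from HT29 cells stably expressing estrogen receptor β (ERβ, the product of ESR2) under blasticidin selection. Both were kept in hormone-stripped medium with no estrogen added and received 30 ng/ml TNFα for 30 min, so no untreated group was analysed here and TNFα cannot be told apart from the background of the line. The mock and ERβ conditions have 1 input each, and the ERβ input was taken by the authors from another series of libraries. The labels list the p65 antibody and TNFα for the inputs too, and they were read as inputs from their titles.

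p65, the RELA subunit, is the transcription-activating partner of most NFκB dimers. In resting cells inhibitor proteins of the IκB family hold the dimers in the cytoplasm. TNFα binding to its receptor activates the IκB kinase, the inhibitors are degraded, and p65 enters the nucleus and binds κB elements, among them those of its own inhibitors, of chemokines and of survival genes. In the intestinal epithelium this response recruits neutrophils and protects the cell against TNFα-driven death.

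Each of 19970 protein-coding genes was given the 200-bp bin of highest mean ChIP signal between 10 kb upstream and 2 kb downstream of its start, and the mean of the 6 ChIP libraries in that bin was divided by the mean of the 2 inputs, or by 0.35 where the input was lower. Signal is the authors' tag density, scaled so that every track has about the same total. A gene is called bound at a ratio of 4 or more, and without binding at a ratio under 2. By this rule 1408 genes (7.05%) were bound and 16107 (80.7%) had a ratio under 2. The median ratio over all genes was 1.34 and the highest 31.9. Since the bin was picked for its ChIP signal, the ratio is a description and carries no test. Across these classes 1145 genes (5.73%) had a mean input under 0.1 over the whole window, 882 of them exactly 0, and are treated as not measurable. They comprise 1136 of the genes under 2-fold, 5 from 2 to 4 and 4 of the bound genes. Of the genes under 2-fold, 14971 (75% of all genes) could be measured.

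The libraries did not enrich equally. The number 1 libraries stood apart, with 2632 genes at 4-fold or more in mock 1 and 2160 in ERβ 1 against 814 to 1166 in the other 4 ChIP libraries. Without both number 1 libraries 931 genes were bound, and 929 of these were among the 1408. All 6 libraries reached 4-fold at 577 genes (2.89%). The bound genes used 1115 different measurable bins, 529 of them shared their bin with another gene, and in 324 the bin lay nearer to the start of another protein-coding gene, so a bin names a neighbourhood and not a regulated gene. The label of the cells was checked at ESR2, where a construct adds signal to coding exons only: exon over intron signal was 6.89, 4.99 and 3.90 in the ERβ ChIP libraries, 2.34 in the ERβ input and 1.08 to 1.34 in the 4 mock libraries. The ERβ ChIP libraries lay above the ERβ input here, and the reason was not tested.

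The sequences at the top of the ranking are shown first, because the κB match is what most of these bins shared and the ranking did not use it. Each is the match to the 10-base κB consensus that lies closest to the centre of the bin, in capitals, with 10 bases on both sides, written 5′ to 3′ on the strand given (GRCh38). They are the 12 highest-ranked genes that have a bin of their own and a match in it.

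NFKBIA, chr14:35403953-35403982, + strand: caggcgcccaGGGACTTTCCgcccccctcc
THSD8, chr19:12793685-12793714, + strand: ggcagattccGGGAATCCCCtcccccgctc
KYNU, chr2:142874491-142874520, - strand: cagggtgttgGGAAGTTCCCagatgggagg
ARL14EP, chr11:30323323-30323352, + strand: cacacgtgagGGGGATTTCCagctgctggc
NFKB2, chr10:102394490-102394519, + strand: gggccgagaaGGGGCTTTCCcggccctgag
CREB3L3, chr19:4147415-4147444, + strand: tttgcgcaatGGGAAACTCCtgtggttccc
SHH, chr7:155815462-155815491, + strand: ggccggtttgGGAAATCCCCgcagtcccag
PLA2G6, chr22:38218759-38218788, + strand: ggaggctggtGGGAATTCCCccacccacac
IFNAR2, chr21:33204340-33204369, + strand: ctcaaaatgtGGGAATTCCCttccagaatt
TNFAIP3, chr6:137867194-137867223, + strand: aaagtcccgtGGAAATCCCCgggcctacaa
IL32, chr16:3065294-3065323, + strand: cctgtactcaGGGAGTTTCCccagccagct
CXCL2, chr4:74099254-74099283, + strand: cccgggccagGGAAATTCCCggagctccag

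The match of TNFAIP3 lay 6 bp upstream of its annotated start, that of IL32 12 bp downstream and that of CXCL2 72 bp upstream, while the match of NFKBIA lay 782 bp inside the annotated gene, next to the start of another transcript. The bins of THSD8, KYNU, CREB3L3, SHH and PLA2G6 were distal, with matches 3014 to 8332 bp upstream. The bin of THSD8 was nearer to JUNB, 2214 bp from its start. The bin of KYNU also held an AP-1 word, centred 46.5 bp from the κB match shown. Several bins held more matches than the one shown, counting overlapping ones. There were 4 in the bin of THSD8, 3 in those of KYNU and NFKB2, and 2 in those of SHH, PLA2G6, IL32 and CXCL2.

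NFKBIA encodes IκBα, the inhibitor whose resynthesis ends an NFκB response, and it ranked highest. Its bin had a signal of 22.8, 10.7 and 13.2 in mock libraries 1 to 3, of 24.3, 10.4 and 10.4 in ERβ libraries 1 to 3, and of 0.294 and 0.665 in the mock and ERβ inputs, giving a ratio of 31.9. Every ChIP library was far above both inputs, and the mock and ERβ values overlapped. Its place depended on the floor under the input, since a floor of 0.2 put CREB3L3 (39.2) and IFNAR2 (32.7) above it (31.9) and a floor of 0.7 put NFKB2 (26.8) above it (21.9), with 19 and 15 of the 25 highest genes shared at those floors. KYNU encodes kynureninase, an enzyme of tryptophan breakdown, and had 21.5, 10.6 and 9.16 in mock, 16.9, 6.85 and 7.20 in ERβ and 0.566 and 0.309 in the inputs, a ratio of 27.5. ARL14EP, a partner of the GTPase ARL14, had 20.5, 10.5 and 11.6 in mock, 17.6, 10.0 and 7.68 in ERβ and 0.370 and 0.580 in the inputs, a ratio of 27.3. In both genes ChIP and input did not overlap and the number 1 libraries were highest.

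NFKB2, which encodes the p100 precursor of the alternative NFκB pathway, had the highest absolute signal of these genes, with 31.2, 16.6 and 19.1 in mock, 28.2, 14.3 and 16.8 in ERβ and 0.499 and 1.07 in the inputs. SHH, a hedgehog ligand, had 21.9, 15.5 and 12.9 in mock against 20.1, 9.74 and 9.27 in ERβ. CREB3L3, a transcription factor best known from liver and small intestine, varied most among these, with 18.4, 4.25 and 6.97 in mock and 10.7, 3.85 and 3.62 in ERβ, and its ratio of 22.8 became 16.8 without mock library 1. TNFAIP3, the ubiquitin-editing inhibitor A20, had 20.1, 9.88 and 12.1 in mock and 19.7, 9.51 and 9.11 in ERβ. These 4 genes kept ChIP above input in every library.

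The 25 genes of highest ratio occupied 22 bins, and all 25 reached 4-fold in each of the 6 libraries, the lowest library ratio being 9.68. Beside those above they were the pair SYS1 and SYS1-DBNDD2 (23.1), NDUFV2 (22.8), NXT2 (22.6), the pair ENSG00000262560 and SERINC4 (21.3), MPND (20.3), KIF2C (19.9), the pair SIRT2 and NFKBIB (19.9), CD83 (19.7), NFKBIZ (19.4) and SFR1 (19.3). The genes of a pair share a bin, so which of them it belongs to cannot be read from the tracks. The THSD8, PLA2G6, IFNAR2, IL32 and CXCL2 ratios were 28.1, 22.5, 22.1, 21.8 and 21.1. Bins of 21 of the 25 genes held a κB match, and those of NDUFV2, NXT2, ENSG00000262560 and SERINC4 held none, also within 100 bp on either side.

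**Figure D1:**
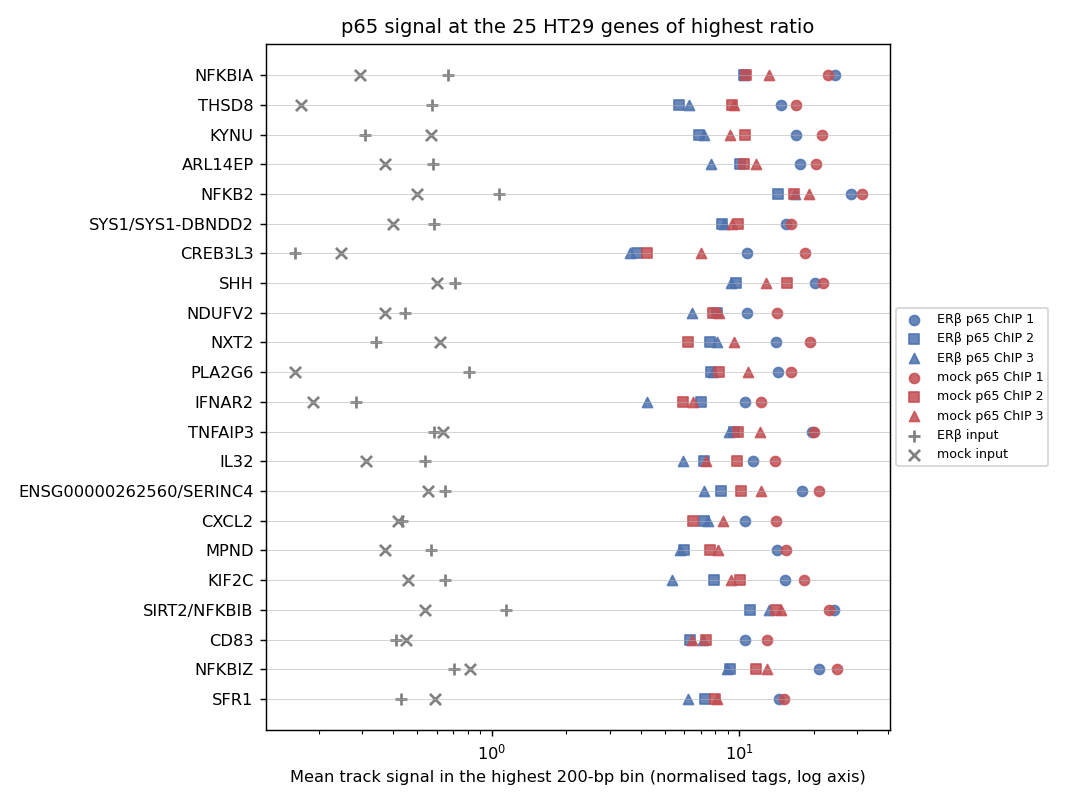
Signal in the highest 200-bp bin of the 25 genes of highest ratio (22 bins, log axis), with 1 point per library: 3 mock (red) and 3 ERβ (blue) p65 ChIP libraries and 2 inputs (grey). Every ChIP point lies to the right of both inputs, and the number 1 libraries (circles) lie furthest right at each bin.

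Around the 100 bins of highest ratio the signal was narrow. Its mean in the bin was 14.0, 7.18 and 7.52 in mock libraries and 12.2, 6.11 and 5.96 in ERβ libraries, against 0.452 and 0.562 in the inputs. At 1 kb on either side the ChIP means had fallen to between 0.566 and 0.972. In the 13299 bins under 2-fold the mean was 0.598 to 0.741 in ChIP and 0.448 and 0.513 in input. A small rise there is built in, since the bins were picked for their ChIP signal.

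**Figure D2:**
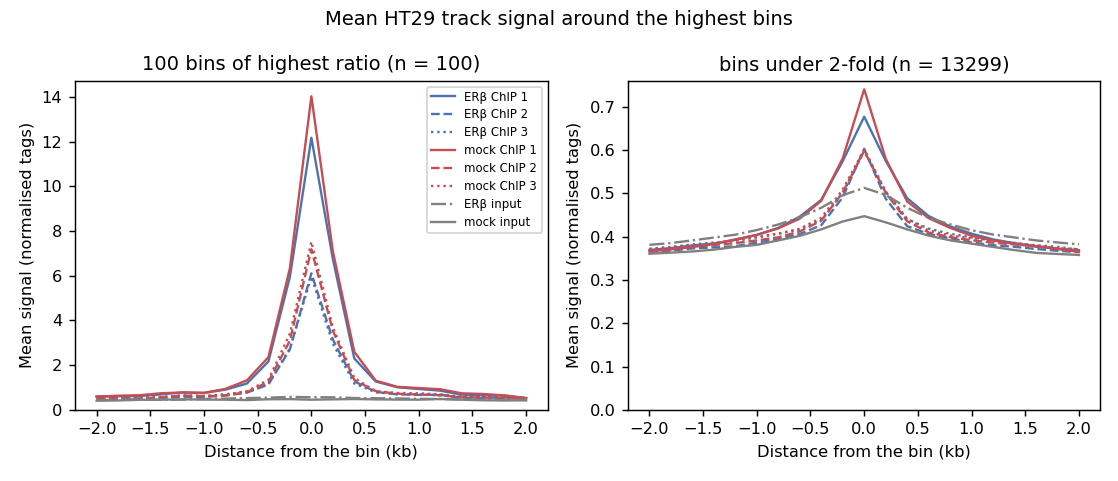
Mean signal of each HT29 library against distance from the picked bin (kb), for the 100 bins of highest ratio (left) and for 13299 bins under 2-fold (right, with its own axis). The left panel peaks at 5.96 to 14.0 in ChIP with flat inputs, and the right panel stays under 0.75 in all libraries.

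Every gene of the core lists of the pathway was bound by its mean ratio. All 6 IκB inhibitors were bound, with NFKBIA at 31.9, NFKBIB at 19.9, NFKBIZ at 19.4, BCL3 at 16.8, NFKBIE at 13.4 and NFKBID at 5.62. All 5 Rel subunits were bound too, with NFKB2 at 26.8, REL at 17.7, NFKB1 at 14.7, RELB at 13.1 and RELA itself at 5.73. RELA, which encodes p65, had 8.07, 3.50 and 4.63 in mock, 5.16, 2.19 and 3.62 in ERβ and 0.647 and 0.933 in the inputs. The median ratio was 18.1 over the inhibitors and 14.7 over the subunits, against 1.38 over all measurable genes, of which 1404 of 18825 (7.46%) were bound. The lists and the genes named were chosen with results of these data known, so their counts are descriptions. A call rests on the mean, and not all bound members reached 4-fold in all 6 libraries. Of the IκB inhibitors 5 of 6 did, and of the Rel subunits 4 of 5. In the lists below 4 of 8 bound clock genes did, and 1 of 4 interferon regulator and antigen-presentation genes. Of the bound AP-1, matrix and colon identity genes 1 of 3 did in each list. All 4 bound cytokines and all 3 bound ubiquitin-editing genes did.

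Of 10 ubiquitin-editing feedback genes 3 were bound, TNFAIP3 (22), its partner TNIP1 (10.9) and the deubiquitinase CYLD (10.7), while TNIP3 (1.25), TAX1BP1 (1.34) and RNF11 (1.58) were under 2-fold. Of 22 measurable genes of TNF receptor signalling 7 were bound. The highest were the kinase MAP3K8 (13.7), IKBKG (11.8), which encodes the regulatory subunit NEMO, and the adaptors TRAF3 (11.5) and TRAF1 (11.2). The kinase MAP3K7 (0.956) and its partners TAB3 (0.905) and TAB1 (0.828) were lowest.

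Of 8 neutrophil chemokines 5 were bound in all 6 libraries, CXCL2 (21.1), CXCL1 (15.7), CXCL3 (15.2), CXCL5 (14.0) and CXCL8 (11.4). CXCL8 encodes interleukin 8 and had 16.4, 9.40 and 9.47 in mock, 12.6, 8.92 and 9.79 in ERβ, and 1.48 and 0.463 in the inputs. CXCL6 (1.82) and the platelet chemokines PPBP and PF4 (1.65 each, 1 shared bin) of the same cluster on chromosome 4 were under 2-fold. CXCL6 had 1.39, 0.800 and 0.974 in mock and 1.23, 1.10 and 0.953 in ERβ, against 0.610 and 0.572 in the inputs. Of 18 other chemokines 4 were bound, CCL20 (12.7), CCL28 (10.1), CXCL16 (7.56) and CXCL10 (6.54), and CCL25 (0.781), CCL7 (1.05) and CCL11 (1.09) were lowest. CCL20 draws dendritic cells and CCL28 is a mucosal epithelial chemokine.

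Of 18 measurable cytokines 4 were bound. These were IL32 (21.8), the IL-6 family member LIF (11.3), IL15 (8.11) and IL23A (6.14), a subunit of interleukin 23. IL1B (1.13), IL33 (1.31) and IL18 (1.32) were lowest. Survival genes were led by BIRC3 (18.5), an inhibitor of TNFα-driven apoptosis, followed by CFLAR (6.77), BIRC2 (4.95) and BCL2L1 (4.26), 4 of 12, whereas BCL2 had a ratio of 0.708, BCL2L2 of 1.19 and XIAP of 1.63. BIRC3 had 22.8, 12.6 and 14.2 in mock and 23.5, 10.2 and 10.3 in ERβ, and BCL2 had 0.580, 0.330 and 0.280 in mock and 0.370, 0.189 and 0.190 in ERβ.

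Of 12 AP-1 genes 3 were bound, JUNB (11.2), FOSB (4.10) and JUND (4.0), the last at the limit, and ATF3 (1.47), BATF2 (1.49) and BATF3 (1.58) were lowest. Of 9 measurable interferon regulators and antigen-presentation genes 4 were bound, among them IRF2 (8.16) and IRF5 (5.4), and IRF9 (1.18), NLRC5 (1.25) and IRF8 (1.75) were lowest. The adhesion list had 2 of 11, ICAM1 (14.5), the leukocyte ligand, and ICAM2 (5.78), while ICAM3 (0.922), MADCAM1 (0.994) and CD44 (1.09) were lowest.

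Of 16 mucosal defence genes 4 were bound, the iron-sequestering protein LCN2 (18.9), the mucin MUC5AC (8.89), the elastase inhibitor PI3 (8.48) and complement C3 (4.16), and DEFB1 (0.529), SLPI (0.834) and LYZ (0.984) were lowest. LCN2 had 14.1, 7.03 and 7.47 in mock and 12.2, 5.82 and 5.07 in ERβ against inputs of 0.290 and 0.623. Of 15 matrix and plasminogen genes 3 were bound, among them the urokinase receptor PLAUR (7.35) and LAMB3 (6.46), and PLAT (0.795), MMP13 (1.10) and MMP3 (1.17) were lowest.

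Of 17 circadian clock genes 8 were bound, among them DBP (12.4), PER1 (10.0), CRY2 (7.46), BMAL2 (7.44), NR1D2 (6.11), CLOCK (5.2) and BHLHE40 (4.08). PER1, a repressor of the clock, had 6.83, 3.80 and 3.84 in mock and 7.47, 2.77 and 2.66 in ERβ, with inputs of 0.366 and 0.547. DBP was read in a bin at -9122 bp from its start that is the promoter of another transcript. PER3 (1.02), CRY1 (1.23) and RORA (1.38) were lowest.

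Over all measurable genes 79.5% were under 2-fold and 7.46% were bound. These are the shares to read the following counts against. Of 27 measurable genes of other tissues 25 (92.6%) were under 2-fold, and the single bound one, the muscle creatine kinase gene CKM (11.3), was read in a bin at -3426 bp from its start. Of 16 leukocyte and endothelial NFκB targets CD83 (19.7) was bound and 13 (81.2%) were under 2-fold, close to the 79.5%. The lowest were FCER2 (0.931), IL2RA (0.933) and SPI1 (1.22). Among gene families 1 of 355 measurable olfactory receptors was bound, and 0 of 62 keratin-associated proteins, 0 of 53 clustered protocadherins, 0 of 13 interferon α genes and 0 of 10 bitter taste receptors were. A count of 0 allows shares of up to 4.84%, 5.66%, 23.1% and 30.0% for these families. The limits for interferon α and bitter taste receptor genes lie above 7.46%, so these counts do not set them apart. The limits treat genes as separate, but the 62 keratin-associated genes lie in 55 bins and the 53 protocadherins in 42.

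Genes known from the colon epithelium were under 2-fold at shares near or below that of all measurable genes. None of 12 Wnt and stem cell genes was bound, which allows a share of up to 25%, above the 7.46% over all measurable genes. Of the 12, 8 (66.7%) were under 2-fold, with SMOC2 (0.893), TCF7 (0.918) and LEF1 (0.959) lowest and ZNRF3 (2.95) highest. LEF1 had 0.148, 0.150 and 0.407 in mock, 0.380, 0.580 and 0.35 in ERβ and 0.25 and 0.183 in the inputs, so ChIP and input overlapped. Of 16 colon identity factors 3 were bound, among them HES1 (12.1) and ELF3 (5.07), and 12 (75%) were under 2-fold, with SOX9 (1.09), ATOH1 (1.13) and CDX1 (1.23) lowest. Of 23 ribosomal protein genes RPS2 (11.6, in a bin shared by 4 genes) and RPS27A (5.90) were bound and 16 (69.6%) were under 2-fold.

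**Figure D3:**
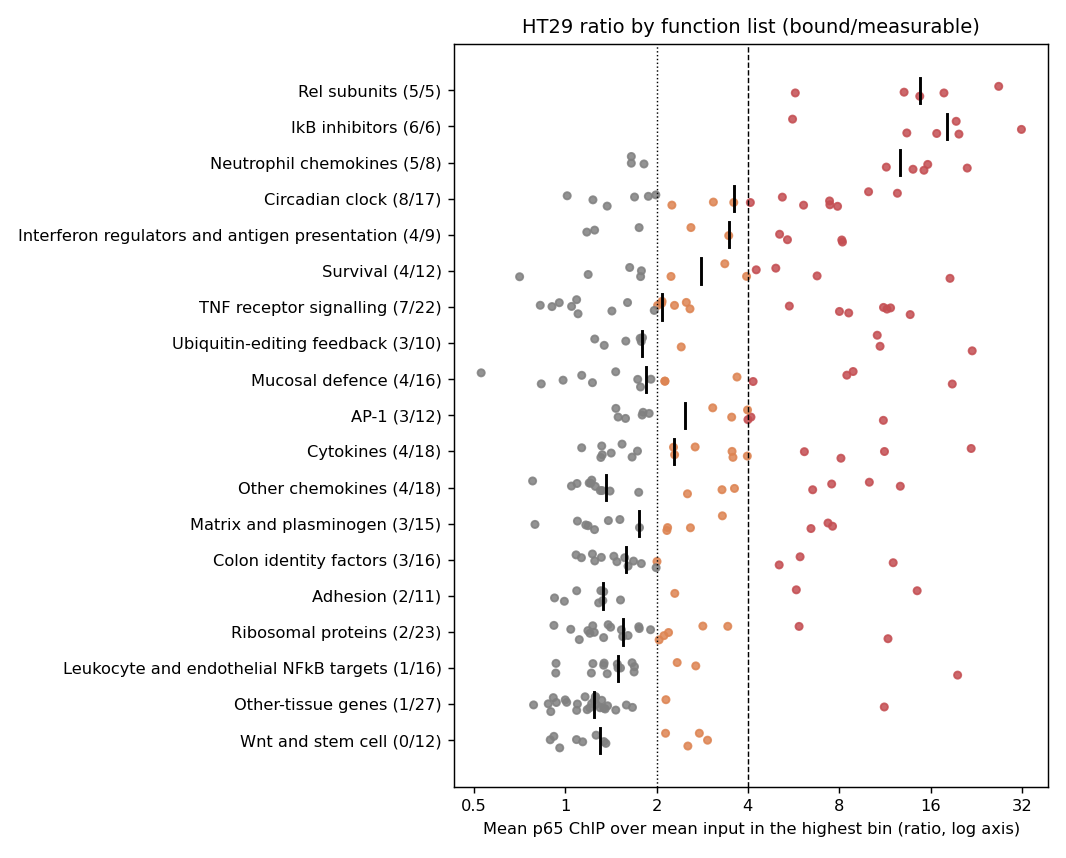
ChIP over input ratio (log axis) of every measurable gene of 19 function lists, with 1 point per gene, the median as a bar, and lines at 2-fold (dotted) and 4-fold (dashed). All Rel subunits and IκB inhibitors lie right of 4-fold, and no Wnt and stem cell gene does.

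Some loci could not be read at all, which is different from having no binding. All 183 protein-coding genes of the extended MHC on chromosome 6, with starts from 28525881 to 33453970, had a window input under 0.1. They include TNF, LTA, LTB, IER3, HLA-B, HLA-C, HLA-E, HLA-F, TAP1, TAP2, TAPBP, PSMB8, PSMB9, CFB and RPS18. Elsewhere in the genome B2M, IRF7, CCL5, MAP3K14, MUC2, DEFB4A and CRYAA were not measurable either. The authors kept uniquely aligned reads and the tracks also list alternate contigs of this region. Whether these genes were bound was not tested.

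At the limit of 4 the ranking was continuous. Just inside were NEO1 (4.002), ETS2 (4.002) and JUND (4.003), and just outside were MOB3B (3.998) and CXCR5 (3.996). These 5 genes reached 4-fold in 2 to 4 of the 6 libraries.

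The test of enrichment used bins picked in the other condition, so that the libraries tested had not chosen them. At bins picked in ERβ, mock ChIP was higher than the 2 inputs at 1232 of 19970 genes (6.17%) at an adjusted p under 0.05 in limma and lower at 28 (0.14%). At bins picked in mock, ERβ ChIP was higher at 0 genes (0%) and lower at 8 (0.0401%) over all genes, with 2925 genes at an unadjusted p under 0.05. These counts depended on single libraries and on the pseudocount, so the 2 conditions are not compared by them. The mock count became 7 without mock library 3, 647 without mock library 2 and 3 with a pseudocount of 1, and the ERβ count became 989 without ERβ library 1 and 376 with a pseudocount of 0.1. For NFKBIA the log2 excess was 4.22 in mock (limma adjusted p = 0.0300) and 4.13 in ERβ (limma adjusted p = 0.0727). NFKBIA was named for a ratio made from these same libraries and inputs, so its p-values are no separate support for its rank. The lists were chosen with results of these data known, so the list counts that follow are descriptions. Over all genes 5 of 6 IκB inhibitors, 4 of 5 Rel subunits and 4 of 8 neutrophil chemokines passed in mock, and 0 of each in ERβ. In a fit chosen after seeing the data, only the 18825 genes with a window input of 0.1 or more were tested, a filter that uses no ChIP signal. Mock ChIP was then higher at 2275 (12.1%) and lower at 28 (0.149%), and ERβ ChIP higher at 1567 (8.32%) and lower at 20 (0.106%). All 6 IκB inhibitors and all 5 Rel subunits passed in both conditions in that fit, as did 5 of 8 neutrophil chemokines in each. There 0 of 12 Wnt and stem cell genes passed in either. With the signal filter given next, 1 of 8 Wnt and stem cell genes tested passed in mock and 0 of 8 in ERβ. When genes were instead kept at a mean signal of 0.35 or more in the bin tested, mock ChIP was higher at 2354 of 14518 (16.2%) and lower at 16 (0.11%), and ERβ ChIP higher at 1704 of 14678 (11.6%) and lower at 10 (0.0681%). That mean includes the ChIP libraries tested, so a gene can pass it through ChIP alone, as CREB3L3 and IFNAR2 did with mean inputs of 0.203 and 0.237, and these counts are descriptions. Mock inputs and ERβ inputs were 1 library each, so the inputs' spread is that between these 2.

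The sequence of the bins followed the ratio. A κB match was present in 9.65% of 13299 bins under 2-fold (95% exact binomial interval 9.15 to 10.2%), in 39.1% of those from 2 to 4, in 60.4% from 4 to 8, in 75.8% from 8 to 16 and in 89.1% of the 46 bins at 16 or more (76.4 to 96.4%). Over all 16483 bins the share was 17.1%, and over the 1115 bound bins 65.7%. Of the 383 bound bins without a match 130 (33.9%) had one within 100 bp. The AP-1 words TGACTCA and TGAGTCA were in 5.56% of bound bins and 3.86% of all bins. Median GC content also rose, from 50% of bases under 2-fold to 61% in bound bins, and promoter bins, within 1 kb upstream to 100 bp downstream of a transcript start, made up 63.4% of bound and 43.5% of all bins. The part of base composition in the κB shares was not tested.

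**Figure D4:**
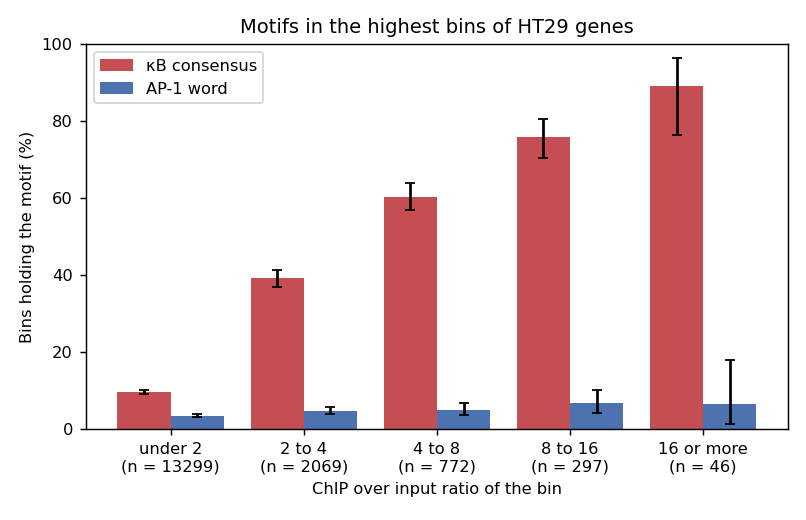
Share of picked bins that hold a κB consensus match (red) or an AP-1 word (blue), by ChIP over input ratio, with 95% exact binomial intervals and bin numbers below. The κB share goes from 9.65% to 89.1%, and the AP-1 share stays between 3.57% and 6.73%.

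Most bins with a κB match were not bound. Among all 1002312 bins of the measurable windows 0.235% reached 4-fold. Of the 41893 with a κB match 2.38% did, against 0.141% of those without one, and 8.06% of the 3786 bins with different κB words did. Different words can overlap within 1 longer stretch, so the 3786 bins need not hold separate sites. Bins with a κB match and an AP-1 word reached it in 4.05% of 1137. The share differed by word. GGGGAATTCC and its reverse complement reached 4-fold in 19.5% of 329 bins, GGGACTTTCC, the word of NFKBIA, in 16.1% of 472, and the palindrome GGGAATTCCC of PLA2G6 and IFNAR2 in 16.1% of 224. GGAATATTCC reached it in 0 of 164, which allows up to 1.83% by 3 counts of the total (exact 95% upper limit 2.22%), and GGAAGATCCC in 0 of 394, which allows up to 0.761% (exact 0.932%). Of 97 words found in at least 100 bins, 20 were at 5% or more, 47 were under 1% and 8 were at 0. Neighbouring windows overlap and a bin with several words counts for each.

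The same word could lie in a bin without binding. For the words of the 4 highest-ranked genes above, the gene of lowest ratio with that word in its own bin, and with an input of 0.25 or more in bin and window, was as follows.

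ZNF264, word of NFKBIA, chr19:57191148-57191177, - strand: tcgggagacaGGGACTTTCCttcaggtcag
MEX3A, word of THSD8, chr1:156091101-156091130, + strand: gctgagacctGGGAATCCCCgtgggtctga
KIAA1217, word of KYNU, chr10:23686816-23686845, + strand: ctgaaaactgGGAAGTTCCCtcctaaatgg
FKBP11, word of ARL14EP, chr12:48924463-48924492, + strand: tcatttcaggGGGGATTTCCagggcagctt

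The ratios of these bins were 0.875 for ZNF264, 1.02 for MEX3A, 1.06 for KIAA1217 and 0.866 for FKBP11, against 31.9, 28.1, 27.5 and 27.3 for NFKBIA, THSD8, KYNU and ARL14EP. The genes were picked for a low ratio, so the contrast is a description. Some of the bins compared also differ in κB content. The bin of THSD8 held 4 matches and that of MEX3A 1, and the bin of KYNU held 3 and that of KIAA1217 2. The bins of NFKBIA, ARL14EP, ZNF264 and FKBP11 held 1 each.

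Between the conditions, mean p65 signal was higher in mock than in ERβ at 1253 of the 1408 bound genes (89.0%), against 5818 of 8733 genes tested (66.6%). The median ERβ over mock signal was 0.828 in bound genes and 0.896 over all genes tested. By library number it was 0.855, 0.832 and 0.774 in bound genes, and without the number 1 libraries it was 0.800. Leaving out mock library 1 alone, with ERβ library 1 kept, turned the direction. The median was then 1.09 in bound genes and 1.08 over all genes tested. Mock was then higher at 450 of the 1408 bound genes. Leaving out ERβ library 1 gave 0.616 in bound genes, and leaving out 1 of the other 4 gave 0.734 to 0.934. ERβ was lower within all 3 numbers at 671 of the 1408 bound genes (47.7%), against 2129 of the 8733 tested (24.4%). The libraries overlapped at most genes, since only 11 bound genes had all ERβ values below all mock values and 0 had the opposite, against 277 and 173 over all genes tested. A lower signal over most bound genes can come from less binding or from lower enrichment of a library, and the 2 cannot be told apart here.

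By gene, limma found 0 of 8733 genes higher and 1 lower in ERβ (0.0115%), with 134 at an unadjusted p under 0.05. That gene was CHRFAM7A, with 3.06, 0.714 and 1.07 in mock, 0.355, 0 and 0 in ERβ and 0 in both inputs, a log2 difference of -1.97 (SE 0.41, adjusted p = 0.0119). It passed the signal minimum only through the mock libraries, its adjusted p in limma was 1 when all genes were tested, and it is a partial copy of CHRNA7 in a window with no input signal. The call is therefore uncertain, and its ratio of 2.48 is below the limit for a bound gene.

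With the replicate number as block, 24 genes were lower in ERβ (0.275%) and 0 higher. The block takes libraries of the same number as pairs, which the data bear out for number 1 only and leave uncertain for numbers 2 and 3. Of the 24, 20 were bound, against 1408 of the 8733 tested. Several of the 24 share a bin and repeat its values, so they are fewer separate bins. These are LIPJ with RNLS, TBPL1 with ENSG00000288529, CEND1 with PANO1, RAB34 with TLCD1, and the genes at RPS2. TRAF3 had 7.14, 4.39 and 4.13 in mock and 4.38, 1.70 and 2.40 in ERβ, a log2 difference of -0.86 (adjusted p = 0.0120 in limma with the block and 0.999 without). GSTP1, a glutathione transferase, had 17.4, 9.41 and 8.54 in mock and 12.8, 7.05 and 4.73 in ERβ (log2 -0.55, limma adjusted p with the block 0.0472). TET3, a DNA demethylating enzyme, had 5.92, 4.17 and 3.40 in mock and 4.68, 1.02 and 1.70 in ERβ (log2 -0.97, limma adjusted p with the block 0.00740). In each of these 3 genes ERβ was below mock within every number, while the groups overlapped because ERβ library 1 was above mock libraries 2 or 3. The bin at RPS2, shared with RPL3L, RNF151 and TBL3, and the bins of TMTC2, UPP1 and PSME1 were lower in the same fit.

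**Figure D5:**
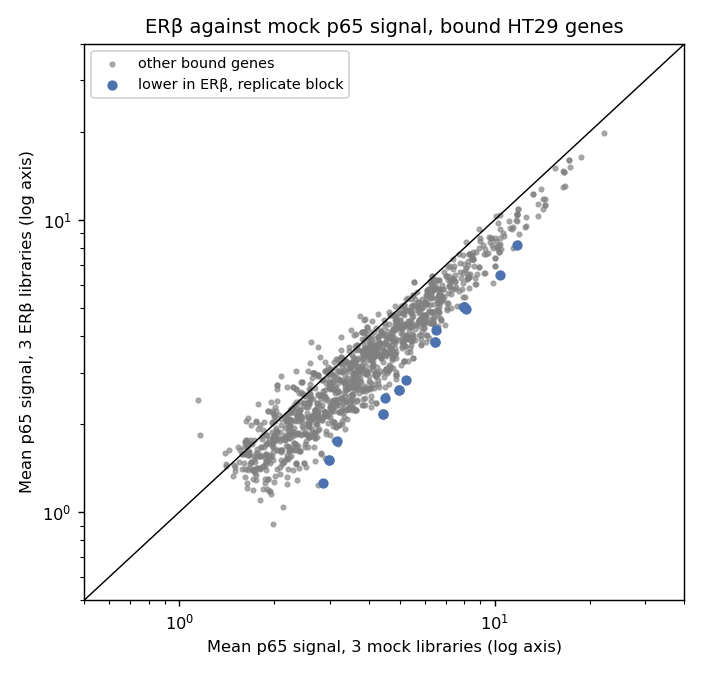
Mean p65 signal of 3 ERβ libraries against 3 mock libraries for the 1408 bound HT29 genes (log axes, line of equality), with the 20 that passed the test with a replicate block in blue (genes sharing a bin fall on the same point). Most points lie below the line, as 1253 of 1408 mock means are higher, against 450 without mock library 1 and with ERβ library 1 kept. Without both number 1 libraries the median ERβ over mock signal was 0.800.

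Much of the HT29 binding was also seen in SW480, the other colon cancer line. With SW480 ChIP set over SW480 input in the same bin, 860 of 1408 bound genes (61.1%) had a ratio of 4 or more and 153 were under 2, and 22 of the 25 highest genes and 91 of the 100 highest reached 4. The exceptions among the 25 were KYNU (3.94), NXT2 (2.93) and ARL14EP (2.56). In SW480's own bins 1236 genes (6.19%) reached 4. CCL2 had a ratio of 3.29 in HT29 and 21.7 in SW480 in the same bin, and PI3 had 8.48 and 1.27. These ratios take mock and ERβ libraries together. In the tests between the lines given next, CCL2 was called neither in the main fit nor with mock and ERβ as separate groups. PI3 was called with separate groups but not in the main fit.

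The excess over input was tested between the lines at 13400 genes in limma, where 2 genes were called higher in HT29 (0.0149%) and 0 lower, and 0 with the replicate block. Genes were tested where the ChIP mean of either line was 0.7 or more, and both called genes passed that filter through HT29 alone. DIPK2B, a secreted kinase-like protein, had 8.09, 3.33 and 3.14 in HT29 mock and 5.85, 3.01 and 2.08 in HT29 ERβ, and 0.25 to 0.765 in the 6 SW480 ChIP libraries, a log2 difference of 2.64 (SE 0.53, adjusted p = 0.0489). PLA2G2F, a secreted phospholipase, had 6.37, 2.82 and 2.41 in HT29 mock and 3.12, 3.21 and 1.65 in HT29 ERβ, and 0.212 to 0.602 in SW480, a log2 difference of 2.38 (SE 0.49, adjusted p = 0.0489). The HT29 and SW480 libraries did not overlap at either gene, and with the replicate block both adjusted p-values were 0.0626. SW480 ChIP and input means were 0.457 and 0.368 at DIPK2B and 0.406 and 0.408 at PLA2G2F. Without the filter neither passed in limma (adjusted p = 0.376 and 0.327), and over genes with a window input of 0.1 or more in both lines, chosen after seeing the data, DIPK2B did (adjusted p = 0.0471) and PLA2G2F did not (0.0515). The 2 calls are therefore uncertain. With mock and ERβ as separate groups 38 genes were called higher in HT29 (0.284%) and 18 lower (0.134%), but 26 of the 38 passed the filter through HT29 alone and 16 of the 18 through SW480 alone, and 1 of the 18 was not measurable in HT29. With the filter on window input in place of that on ChIP, chosen after seeing the data, 35 genes were higher (0.186%) and 14 lower (0.0745%), and 35 of the 38 and 13 of the 18 were among them. Those higher in both fits included KYNU, TANK, an adaptor of TRAF proteins, and CD55, a complement inhibitor, and of these TANK and CD55 had SW480 ChIP means of 0.640 and 0.421. Those lower in both included INAVA, a regulator of the epithelial barrier (log2 -2.57), and LEF1, a Wnt transcription factor (log2 -1.88). The LEF1 bin tested, not the HT29 bin described above, had a ChIP mean of 0.2975 in HT29 and 1.75 in SW480 over input means of 0.423 and 0.209. Its SW480 signal was 2.84, 3.39 and 2.55 in the ERβ libraries, against 0.67, 0.798 and 0.254 in the mock libraries. Those SW480 mock values overlapped the HT29 mock values of 0.52, 0.318 and 0.41. INAVA had 9.85, 10.0 and 10.6 in SW480 ERβ and 3.29, 2.52 and 4.73 in SW480 mock. Its HT29 ChIP mean in the bin tested was 0.716 over an input mean of 0.576. That bin is not the highest HT29 bin of INAVA, where the HT29 ratio was 3.15. The direction turned with the condition, as the mock libraries alone gave 136 genes higher in HT29 and 3 lower, and the ERβ libraries alone 10 higher and 142 lower.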

How the data were processed

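p65 ChIP-Seq of HT29 cells was analysed from 6 ChIP and 2 input tracks, with 8 SW480 tracks for comparison. Per the labels and methods, STAR alignment to GRCh38 retained unique reads only, and HOMER made the tracks. The deposited coverage signal is tag density normalised to 100-bp fragments, with no stretch under 0.05, and the 16 tracks sum to 9.43 to 9.76 M tags, so depth is unknown from the tracks and no counting interval is given for a signal.

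Mean signal per 200-bp bin was computed with Python 3.11.15 and numpy 2.4.6, and genes were taken from GENCODE release 44. Fits used limma 3.58.1 with trend in R 4.3.3 on log2(signal + 0.35), so a log2 difference understates the change of low values. The ERβ against mock test kept genes with a mean ChIP signal of 0.7 or more, and the test between lines those where either line reached it. Adjustment followed Benjamini and Hochberg over all genes tested. Fits were tested on simulated data. Motif intervals (scipy 1.17.1) cover counting error only. Replicates are separate samples by label, and p-values measure the spread between them. Deviations from the group mean correlated at 0.371, 0.122 and 0.119 for same-numbered mock and ERβ libraries, all over 0.1, so the numbers were taken to pair the libraries from the data, since the labels do not say what a number shared. The pairing is uncertain for numbers 2 and 3, since mock 2 with ERβ 3 correlated at 0.133, above both, while the other unlike pairs were between -0.229 and 0.0835. Deviations within a group sum to 0, so the value of 0.371 for number 1 raises those among numbers 2 and 3. The correlations therefore set number 1 apart and do not show how numbers 2 and 3 pair.

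The members, the 19 lists and the tests were chosen with earlier results of these data known. Genes named were the 25 of highest ratio, up to 4 highest and 3 lowest of each list, genes past a test that were bound, and 3 on either side of the limit; further values in those lists (such as CCL2), CHRFAM7A and the genes of the block and separate-group fits were chosen after their values were seen. Alternatives changed the floor, input, bin, window, scaling, pseudocount, filter and libraries. The 76 protein-coding genes on chromosome Y and mitochondria were not used, and some genes that the naming rule selects are not reported here.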

Additional observations from a re-analysis of the deposited data

Results flagged for a closer look

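The test of the difference between the lines called the excess of p65 ChIP over input at DIPK2B (log2 difference 2.64, HT29 minus SW480) and PLA2G2F (2.38) in limma (adjusted p = 0.0489), but both calls are uncertain, with ChIP higher in all 6 HT29 than in all 6 SW480 libraries. The adjusted p ranged from 4.01e-05 to 0.376 for DIPK2B and from 0.000591 to 0.817 for PLA2G2F over the alternatives, and was 0.376 and 0.327 without the filter, which both genes passed through HT29 alone, and 0.0626 for both with the replicate block.

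An excess of coding-exon over intron signal was seen at ESR2. It was 3.90 in the lowest ERβ ChIP library and 2.34 in the ERβ input, against 1.34 in the highest mock library. Why the ERβ ChIP libraries lay above their input was not tested, and a part of binding in this excess cannot be told apart. Groups of 3 libraries were not searched for outlying samples.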

How the results depend on the processing

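The number of bound genes, 1408, stayed within 1.5 times under the other ranking settings, and became 904 with a floor of 0.7, 571 from 1 kb upstream to 100 bp downstream, 2863 from 50 kb upstream, and 931 without both number 1 ChIP libraries (chosen after seeing the data); leaving out 1 library gave 1161 to 1529 and left 15753 to 16556 genes under 2-fold. Of the 425 values of the 25 highest ratios under alternatives, 379 moved by less than the spread between libraries. All 25 did so whichever library was left out, which is largely built in. By contrast 17 of 25 moved further with the window from 1 kb upstream to 100 bp downstream. With the window's mean ChIP signal as denominator 12 did, and in 400-bp bins 8 did. Of the 25 highest genes these settings shared 8, 13 and 17, and the window from 50 kb upstream shared 7. The κB share of bound bins was 74.2% in 400-bp bins.

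ERβ ChIP over input gave 376 genes with a pseudocount of 0.1, 1618 with centred libraries, 1704 with the filter, 1567 with a window input of 0.1 or more, and 0 to 989 when 1 library was left out (989 without ERβ library 1). Mock ChIP over input gave 3 with a pseudocount of 1, 2153 centred, 2354 with the filter, 2275 with a window input of 0.1 or more, and 7 to 1582 with 1 library left out (7 without mock library 3, 647 without mock library 2). ERβ against mock gave 24 lower genes with the replicate block, 0 with a pseudocount of 0.1, without the filter, with a window input of 0.1 or more or in 400-bp bins, and 0 to 1 lower and 0 higher with 1 library left out.

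HT29 against SW480 gave 4 higher with a pseudocount of 0.1, 0 with a pseudocount of 1, without the filter or with the replicate block, 67 higher and 8 lower when centred, and 0 to 16 higher and 0 to 5 lower with 1 library left out. The fits by window input, added after seeing the data, gave 1 higher here, and others gave 38 higher and 18 lower with separate groups (35 and 14 by window input), 136 and 3 in mock libraries only, and 10 and 142 in ERβ libraries only. Where a count moved, the cause was not tested. A window with little input or a bin under 2-fold can hold binding that these tracks cannot show.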
